A study of Mus musculus with 21 samples.

Results

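Collagens are the triple-helical proteins of the extracellular matrix, and their chains were followed through the formation of the mouse testis. The members were all probe sets of the array whose single annotated gene symbol reads Col, a number, a, and a number. This gave 82 of the 34945 probe sets with 1 gene, for 42 of 18193 genes and 26 collagen types. Members were set by symbol alone and not by their measured values, though with earlier results of these data known. A filter on low values was passed by 69 probe sets of 39 genes, and these genes were tested. Col6a5, Col10a1 and Col19a1 did not pass it and are described on their own. Where a gene had several probe sets, the brightest on average over the testis arrays stood for it.

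CD-1 mice, which are outbred and carried no mutation here, gave whole testes that were measured on single-channel Affymetrix mouse arrays. The stages were gestation day (gd) 11 with 5 arrays, and gd12, gd14, gd16, gd18 and postnatal day (pnd) 2 with 3 arrays each. The sample labels give pools of 2 at gd11, pools of 5 at gd12 and single animals from gd14 on, while the design text gives single animals from separate dams at all times. These accounts differ for gd11 and gd12, and that of the sample labels is used here. The reference was 1 array of pooled RNA from 8 whole newborns of postnatal day 0.5, younger than the pnd2 testes, 4 male and 4 female, so it holds all tissues and both sexes and has no replicate. All animals were wild type, and the labels name no treatment.

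As background, each collagen type is built from its own chains. Types I, III and V form the fibrils of connective tissue, types II, IX and XI the fibrils of cartilage, and type IV the sheet of basement membranes. Type VI forms beaded microfibrils around cells. In the testis, a basement membrane lies between the Sertoli cells of the cords and the peritubular cells, which lay down matrix together. Fibrillar collagens fill the interstitium and the capsule.

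Values are intensities that the authors scaled to the same trimmed mean on every array, and a stage mean below 71.6 is called near background. Changes are differences of log2(intensity + 22.4) given ± the limma standard error (SE), and their sizes are understated for dim genes. Stage means carry their SD, from 5 arrays at gd11 and 3 at each later stage. A gene is called when its p, adjusted by Benjamini-Hochberg over 14338 genes, is below 0.05. The sum over the Sertoli cell markers was 73780 to 87195 on pnd2 arrays and 3053 to 9721 on gd11 arrays. On gd11 replicates 16 and 17 the neural markers summed to 58478 and 36044, against 3496 to 8178 on the other 3 gd11 arrays. The peritubular and interstitial markers summed to 9151 and 14822 on these arrays, against 21992 to 32597. Counts of collagen genes called against gd11 are therefore also given without gd11 replicates 16 and 17, and collagen calls lost without them are named. Counts and values of the marker lists and other gene lists use all 5 gd11 arrays.

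Most collagen genes were higher in the newborn testis than at gd11. At pnd2 against gd11, 25 of 39 collagen genes rose, 5 fell and 9 were not called, where 24.2% of all genes rose and 24.4% fell, 48.6% in all. The 25 include Col4a3, Col4a4, Col6a4 and Col17a1, which passed the filter mainly through later stages where they are high. No count was made without them. The median change was 1.07 over the collagen genes and -0.03 over all genes tested, on the log2 scale. Without gd11 replicates 16 and 17, 25 rose and 4 fell. The highest mean intensity lay at gd18 for 14 genes, at pnd2 for 8, at gd12 for 6, at gd11 and gd16 for 5 each and at gd14 for 1. The lowest mean intensity lay at gd11 for 23 genes. These counts by stage were not made over all genes and rest on 1 probe set per gene. A further probe set of Col1a1, of Col1a2 and of Col3a1 had a higher mean at pnd2 than at gd18. The further probe sets of Col5a1 and Col6a2 were highest at gd18, as counted. A moderated F-test over the 6 stages called 35 of the 39, where it called 68.3% of all genes. It did not call Col7a1, Col8a1, Col12a1 and Col20a1. In these whole organs, fewer cells of a type and less RNA per cell cannot be told apart.

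At gd12 against gd11, 14 collagen genes rose and Col11a1 fell, where 11.2% of all genes rose and 10.2% fell, 21.4% in all. The 14 include Col4a3 and Col4a4, which passed the filter mainly through stages after gd11. Without gd11 replicates 16 and 17, 13 rose and 2 fell, and in a fit of these stages alone 12 rose and 1 fell. At gd14 against gd12, 5 rose and 4 fell, where 11.4% of all genes rose and 7.34% fell, 18.7% in all. These 9 calls became 5 without gd14 replicate 10 and 4 without gd14 replicate 12. At gd16 against gd14, 6 rose and 1 fell, where 5.39% of all genes rose and 4.99% fell, 10.4% in all. The 6 include Col6a4 and Col17a1, which passed the filter through gd16 and later stages, where they are high. The 7 calls became 4, 2 and 3 without gd14 replicates 10, 11 and 12, and 3 and 2 without gd16 replicates 7 and 9. Without both gd11 replicates 16 and 17, which enter the shared spread, 15 genes were called, and in a fit of gd14 and gd16 alone 18 were. All shares of all genes given here belong to the fit of all arrays and were not counted in the other fits. At gd18 against gd16, Col4a4 rose and Col9a3 fell, where 1.70% of all genes rose and 3.18% fell, 4.88% in all. Limma called no collagen gene without gd16 replicate 8 or without gd18 replicate 4 (3 at an unadjusted p under 0.05 in each fit), and 1 was called without gd16 replicate 7 or gd18 replicate 5. The 2 calls became 4 without gd11 replicates 16 and 17. At pnd2 against gd18, Col4a3 and Col4a4 rose and Col2a1 and Col11a2 fell, where 2.54% of all genes rose and 5.26% fell, 7.80% in all. Limma called none there without gd18 replicate 6 (5 at an unadjusted p under 0.05) or without pnd2 replicate 3 (7 at that level). The count was 1 without gd18 replicate 5 or pnd2 replicate 2, and 2 without gd14 replicate 11 or 12, gd16 replicate 7 or 8, or pnd2 replicate 1.

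**Figure D1:**
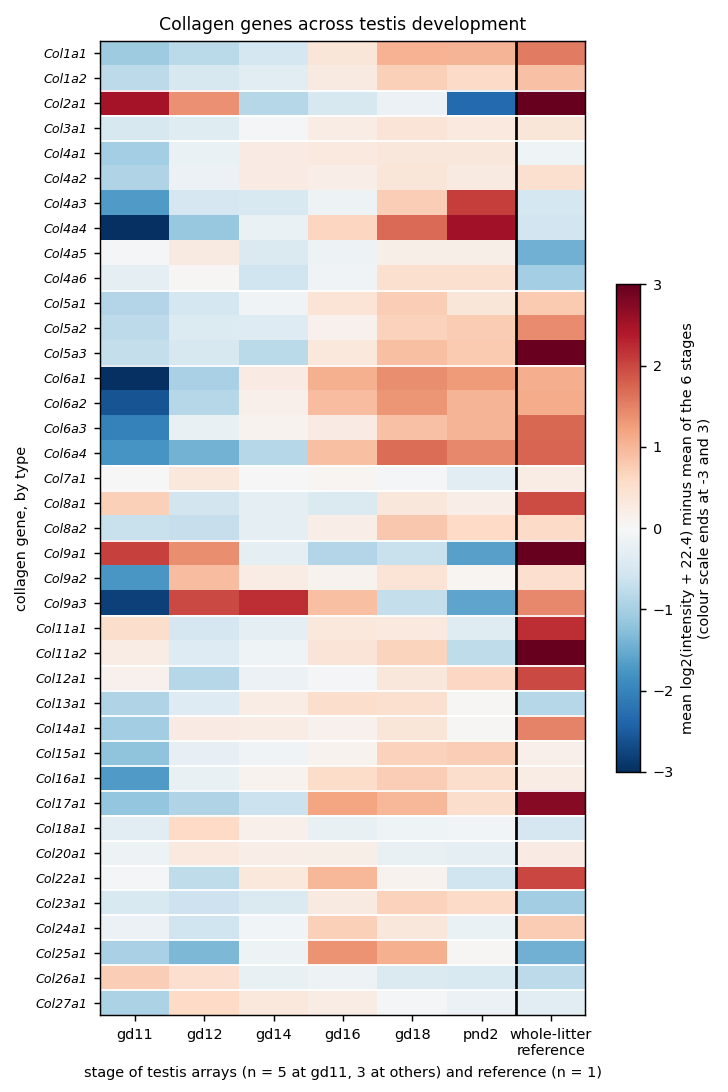
Colour map of the 39 tested collagen genes, ordered by type with white lines between types, over the 6 testis stages and the whole newborn reference. Colour gives the mean log2(intensity + 22.4) minus the gene's mean over the 6 stages, blue for lower and red for higher, with the scale ending at -3 and 3. On this log2 scale the gd11 column is the lowest stage for 22 genes, and Col2a1, Col9a1, Col11a1, Col8a1 and Col26a1 are highest there. The lowest stage was not counted over all genes.

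The chains of type IV collagen, the network of basement membranes, are encoded in head-to-head pairs. Col4a1 and Col4a2 make the common form of the network. Col4a3, Col4a4 and Col4a5 make the form best known from the kidney glomerulus, and Col4a6 joins Col4a5 in other basement membranes. The windows from 250 bases before to 50 bases after the gene start of Col4a1 and Col4a2 are shown because the pair shares its start region. They come from RefSeq on GRCm38.p6, where 33 of the 42 collagen genes had an entry. Col4a1 lies on the minus strand of chromosome 8 (chr8:11312777-11313076) and Col4a2 on the plus strand (chr8:11312555-11312854). Capitals mark the 78 bases that both windows hold, chr8:11312777-11312854, each read on its own strand. Col4a4 lies on the minus strand of chromosome 1 (chr1:82586800-82587099) and is shown because its gene had the largest fitted log2 rise at pnd2 against gd11, with no base marked.
Col4a1: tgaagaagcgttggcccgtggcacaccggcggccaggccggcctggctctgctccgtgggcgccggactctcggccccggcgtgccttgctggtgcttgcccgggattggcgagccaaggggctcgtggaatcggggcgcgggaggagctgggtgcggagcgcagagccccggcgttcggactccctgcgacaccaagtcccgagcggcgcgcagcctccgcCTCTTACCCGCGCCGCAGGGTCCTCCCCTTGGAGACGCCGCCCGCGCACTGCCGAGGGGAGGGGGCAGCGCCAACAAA
Col4a2: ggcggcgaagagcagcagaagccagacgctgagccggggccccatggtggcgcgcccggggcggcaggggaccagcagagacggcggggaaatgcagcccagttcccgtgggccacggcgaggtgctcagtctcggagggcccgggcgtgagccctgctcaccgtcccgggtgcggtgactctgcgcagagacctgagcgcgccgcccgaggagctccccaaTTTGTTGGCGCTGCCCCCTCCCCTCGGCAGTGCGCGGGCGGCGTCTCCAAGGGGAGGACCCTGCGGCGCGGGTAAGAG
Col4a4: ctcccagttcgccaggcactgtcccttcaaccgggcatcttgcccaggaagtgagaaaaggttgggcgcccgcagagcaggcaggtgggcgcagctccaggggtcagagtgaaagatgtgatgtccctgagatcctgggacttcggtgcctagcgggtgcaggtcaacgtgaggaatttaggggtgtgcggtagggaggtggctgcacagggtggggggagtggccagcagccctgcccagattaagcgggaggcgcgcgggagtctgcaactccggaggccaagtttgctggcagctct
The motifs GGGCGG (a GC box), CCAAT and TATAAA were searched on both strands, and no matches in the windows shown overlap. Among 32817 windows of the same length, 35.6% held GGGCGG, 37.4% held CCAAT and 13.6% held TATAAA. The Col4a1 window held GGGCGG and CCAAT on the other strand, 1 match each. The Col4a2 window held GGGCGG at 2 places on its own strand and 1 on the other, and CCAAT at 1 place on its own strand. None of the motifs was in the Col4a4 window. The windows of Col4a5 and Col4a6 on chromosome X, also head to head, lay 842 bases apart.

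Col4a1 and Col4a2 rose at gd12, and Col4a1 again at gd14. Col4a1 intensity was 5544, 6165, 6779, 7423 and 7093 at gd11, 13975, 8369 and 13411 at gd12, 15242, 17123 and 15249 at gd14, 17219, 16819.9 and 14961 at gd16, 18202, 16667 and 15898 at gd18, and 16200.4, 15954 and 19126 at pnd2. Every gd12 array lay above every gd11 array, with a log2 change of 0.82 ± 0.13 (adjusted p = 0.000248). The rise at gd14 against gd12 was smaller, 0.45 ± 0.15 (adjusted p = 0.0413), and this call was lost in 7 of 27 other settings, among them each one without a gd14 array, without gd12 replicate 14 or without gd18 replicate 5 (adjusted p 0.0502 to 0.242). Without gd12 replicate 14 the change was 0.21. Col4a2 intensity was 2741, 2464, 3059, 2907 and 3008 at gd11, 5568, 3172 and 5908 at gd12, 5635, 6963 and 6619 at gd14, 6352, 6571 and 5672 at gd16, 8072, 6667 and 5988 at gd18, and 6475, 6047 and 6901 at pnd2. It rose at gd12 against gd11 by 0.73 ± 0.15 (adjusted p = 0.00211), and its later adjacent steps were not called. Over the whole period, pnd2 against gd11, Col4a1 rose by 1.37 ± 0.13 (adjusted p = 8.12e-08) and Col4a2 by 1.19 ± 0.15 (adjusted p = 3.01e-06).

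Col4a4 rose at every step on the probe set that represents it. Its intensity was 15.7, 40.2, 27.0, 9.04 and 26.9 at gd11, 137, 222 and 301 at gd12, 398, 440.2 and 435 at gd14, 749.5, 738 and 878 at gd16, 1998, 1497 and 1523 at gd18, and 2723, 2852 and 3237 at pnd2. No array of a stage overlapped with the stage before it. Its probe set was above the filter level on 15 of 20 testis arrays, through the stages after gd11, where it is high. The rises of Col4a4 against gd11 are therefore description only. The gd11 mean was near background, so the pnd2 mean of 2938 ± 268 (SD, n = 3) was at least 41.0-fold higher, taken against 71.6. The log2 change at pnd2 against gd11 was 6.04 ± 0.21 (adjusted p = 1.36e-13). By step it was 2.37 ± 0.21 (adjusted p = 3.32e-07) at gd12 against gd11, at least 3.08-fold, and 0.94 ± 0.24 (adjusted p = 0.00911) at gd14 against gd12. The later steps were 0.86 ± 0.24 (adjusted p = 0.027) at gd16 against gd14, 1.06 ± 0.24 (adjusted p = 0.0148) at gd18 against gd16 and 0.81 ± 0.24 (adjusted p = 0.0403) at pnd2 against gd18. Each of these 4 later calls was lost without some single arrays. The gd14 call was lost without gd12 replicate 13 (adjusted p 0.0589). The gd16 call was lost without any gd14 array or without gd16 replicate 7 or 9 (0.0599 to 0.118). At gd18 the call was lost without gd16 replicate 7 or 8 or gd18 replicate 4 (0.0536 to 0.0977). The pnd2 call against gd18 was lost in 11 of 27 settings (0.0502 to 0.138): without any pnd2 array, gd18 replicate 5 or 6, gd16 replicate 7 or 8 or gd14 replicate 11 or 12, without the filter, and with quantile normalization.

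Col4a3, the head-to-head partner of Col4a4, was near background at gd11 and gd12 on both of its probe sets. At gd14 the probe set that represents it had a mean of 58.5 ± 16.8, near background, and the other 87.0 ± 31.9, above that level (SD, n = 3). Col4a3 intensity was 3.38, 6.86, 50.6, 5.69 and 6.42 at gd11, 42.8, 55.0 and 68.1 at gd12, 40.6, 73.9 and 60.9 at gd14, 64.7, 64.3 and 104 at gd16, 247, 108 and 149 at gd18, and 358, 424 and 566 at pnd2. All pnd2 arrays were above all gd18 arrays. The log2 change was 1.35 ± 0.36 (adjusted p = 0.0283) at pnd2 against gd18 and 3.78 ± 0.32 (adjusted p = 1.69e-08) at pnd2 against gd11. The pnd2 call against gd18 was lost without gd18 replicate 5 or 6 or without pnd2 replicate 2 or 3 (adjusted p 0.0728 to 0.115). Taken against 71.6, the pnd2 mean of 449 ± 106 (SD, n = 3) was at least 6.27-fold above gd11. This probe set was above the filter level on 8 of 20 testis arrays, mainly of the later stages where it is high. Col4a3 thus entered the test mainly through those stages, and its rises against gd11 are description only. The call at gd12 against gd11, 1.19 ± 0.32 (adjusted p = 0.0135), was of overlapping groups, since gd11 replicate 18 read 50.6, and both stage means were near background. It was lost without gd12 replicate 15, without gd11 replicates 16 and 17, and in a fit of these stages alone (adjusted p 0.0537 to 0.0871).

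Col4a5 and Col4a6 were lowest at gd14. Col4a5 intensity was 1876, 2565, 3937, 2526 and 2711 at gd11, 4192, 2867 and 2882 at gd12, 1832, 1975 and 2243 at gd14, 2633, 2502 and 2170.2 at gd16, 2903, 2886 and 3358 at gd18, and 2920.3, 3077 and 3114 at pnd2. It fell at gd14 against gd12 by 0.69 on the log2 scale (SE 0.19, adjusted p = 0.0138), a call lost without gd12 replicate 13 or gd14 replicate 10 (adjusted p 0.0612 to 0.0837). At pnd2 against gd11 its change was 0.20 ± 0.17 (adjusted p = 0.351), which was not called. Col4a6 intensity was 177, 198, 337, 238 and 342 at gd11, 379, 356 and 239.8 at gd12, 235, 154 and 206 at gd14, 308, 253 and 307 at gd16, 437, 417 and 471 at gd18, and 439, 371 and 531 at pnd2. Its change at gd14 against gd12 was -0.65 ± 0.23 (adjusted p = 0.0581), not called, and it rose at pnd2 against gd11 by 0.77 ± 0.21 (adjusted p = 0.00456). Sertoli marker sums were 62200 to 66770 at gd14 and 23554 to 40772 at gd12, and 8 of 10 Sertoli markers rose at pnd2 against gd11, with none lower, where 24.2% of all genes rose. Of 8 endothelial markers, 1 rose and 5 fell in that comparison, where 24.4% of all genes fell. The part of either cell type in the type IV values was not tested.

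**Figure D2:**
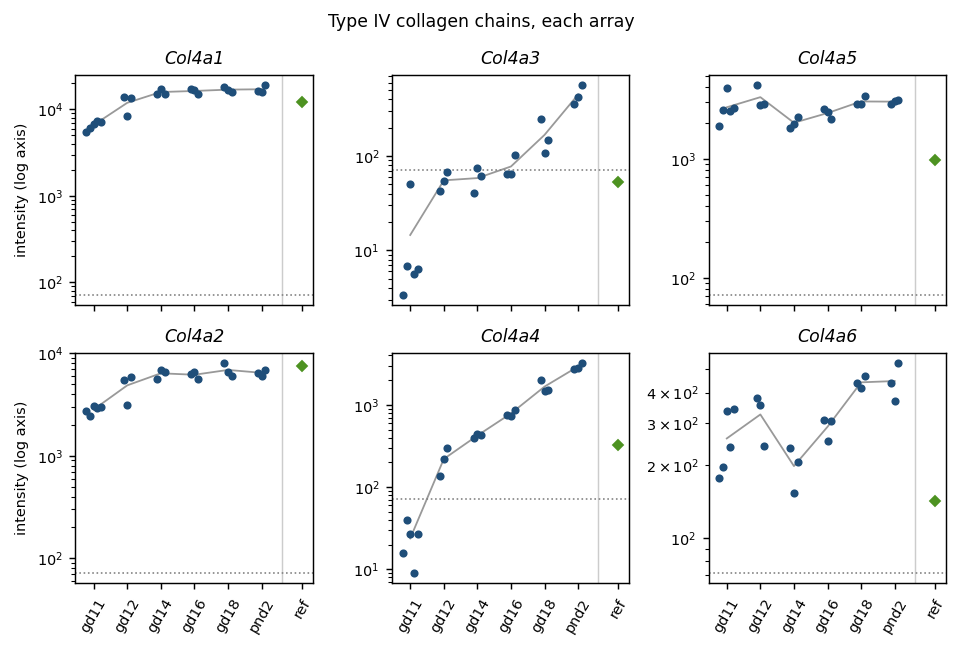
Intensity of the 6 type IV chains on a log axis for each of the 20 testis arrays by stage, with the whole newborn reference as a diamond at the right. Points are arrays, the grey line joins stage means and the dotted line is 71.6. Col4a4 lies at 2723 to 3237 at pnd2 and at 9.04 to 40.2 at gd11, and no step after gd14 is called for Col4a1 or Col4a2.

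At gd12, 3 of the 4 tested chains of type VI collagen rose. Col6a1, Col6a2 and Col6a3 are the chains of the common heterotrimer, and Col6a4 is a related chain of mouse that can take the place of Col6a3. Col6a1 intensity was 294, 482, 846, 734 and 780.3 at gd11, 3669.6, 1725 and 2439.5 at gd12, 5313, 6307 and 5971 at gd14, 10156, 10015 and 10984 at gd16, 13359.6, 12458 and 13214 at gd18, and 11292, 12278 and 12056 at pnd2. The gd12 arrays all lay above the gd11 arrays, and the gd14, gd16 and gd18 arrays each lay above those of the stage before. The called steps were 2.04 ± 0.25 (adjusted p = 1.46e-05) at gd12 against gd11 and 1.22 ± 0.28 (adjusted p = 0.0046) at gd14 against gd12. Its change at gd16 against gd14, 0.82 ± 0.28 (adjusted p = 0.0661), was not called, and without gd11 replicates 16 and 17 it was (adjusted p = 0.00241).

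Col6a2 rose at 3 adjacent steps. Its intensity was 703, 901, 1581, 1323 and 1426 at gd11, 5377, 3143 and 3392 at gd12, 7173, 8379.6 and 7739.6 at gd14, 13827, 12660.2 and 13295 at gd16, 17758, 17528 and 16643 at gd18, and 13886, 14001 and 14673 at pnd2. It rose by 1.74 ± 0.20 (adjusted p = 6.89e-06) at gd12, by 1.0 ± 0.22 (adjusted p = 0.00384) at gd14 and by 0.77 ± 0.22 (adjusted p = 0.0327) at gd16, each against the stage before. The gd16 call was lost when any array of gd14 or gd16 was left out (adjusted p 0.058 to 0.121). Col6a3 intensity was 642, 710.0, 1075, 1141 and 676 at gd11, 4856, 1741 and 2943 at gd12, 2953, 4245 and 4008 at gd14, 4102, 3519.8 and 4599 at gd16, 6898, 6206 and 6015 at gd18, and 6339, 7963 and 6788 at pnd2. It rose at gd12 by 1.80 ± 0.24 (adjusted p = 4.09e-05) and in no later adjacent step, with gd12 replicate 13 above every gd14 and gd16 array.

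Col6a4 was near background until gd14. Its intensity was 2.56, 13.2, 26.2, 11.3 and 25.7 at gd11, 19.9, 29.3 and 24.3 at gd12, 20.3, 64.0 and 68.8 at gd14, 212, 133 and 333 at gd16, 375, 326 and 446 at gd18, and 294, 322 and 342 at pnd2. It rose at gd16 against gd14 by 1.76 ± 0.33 (adjusted p = 0.0027), at least 3.16-fold when gd14 is taken at 71.6, and all later arrays lay above all earlier ones. Its probe set was above the filter level on 9 of 20 testis arrays, those of gd16 and later. It thus entered the test only through stages where it is high. This rise, this gap and the rise of Col6a4 at pnd2 against gd11 are description only. At pnd2 against gd11 the 4 chains rose by 4.29 ± 0.25 (adjusted p = 8.29e-11) for Col6a1, 3.62 ± 0.20 (adjusted p = 3.47e-11) for Col6a2, 3.05 ± 0.24 (adjusted p = 5.44e-09) for Col6a3 and a fitted 3.20 ± 0.29 (adjusted p = 4.06e-08) for Col6a4, at least 4.46-fold. Without gd11 replicates 16 and 17, the rise at gd12 was 1.64 for Col6a1, 1.41 for Col6a2 and 1.61 for Col6a3, and all 3 calls held. Peritubular and interstitial marker sums were 9151 to 32597 at gd11, 25278 to 31252 at gd12 and 69527 to 78502 at pnd2, and 7 of these 8 markers rose at pnd2 against gd11, where 24.2% of all genes rose. Their part in the type VI values was not tested.

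The 6 tested chains of types I, III and V each had their highest mean at gd18 or pnd2. Col1a1 and Col1a2 are the chains of type I, the main fibril of connective tissue. Col1a1 intensity was 1584, 3180.4, 6416, 5375 and 4563 at gd11, 7347, 3919.6 and 3339 at gd12, 5037, 6153 and 5449.8 at gd14, 9506, 9831 and 11916 at gd16, 17177, 15726 and 16641 at gd18, and 15361, 15265 and 18609 at pnd2. All arrays from gd16 on lay above all earlier arrays. Col1a2 intensity was 4717, 7289, 14886, 13254 and 12595 at gd11, 16629.6, 11330.4 and 8929 at gd12, 12577, 13452 and 13980.0 at gd14, 20596, 20215 and 19674 at gd16, 28387, 26183 and 27121 at gd18, and 22802, 22898 and 28824 at pnd2. Its gd18 arrays lay above those of gd16, and its pnd2 arrays overlapped with those of gd18. Neither gene was called in any adjacent step in the fit of all arrays. Without gd11 replicates 16 and 17, which read lowest for both genes, the rise at gd16 against gd14 was 0.90 for Col1a1 (adjusted p = 0.0045) and 0.60 for Col1a2 (adjusted p = 0.0101). At pnd2 against gd11 Col1a1 rose by 2.10 ± 0.31 (adjusted p = 1.79e-05) and Col1a2 by 1.35 ± 0.27 (adjusted p = 0.000363), and without these arrays by 1.59 and 0.87.

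Col3a1, the chain of type III, which mixes with type I in soft tissue, also rose over the whole period. Its intensity was 11763, 15815, 23925, 22063 and 21098 at gd11, 25116, 17683 and 18178 at gd12, 24049.7, 24355 and 25492 at gd14, 31648, 28937 and 29674 at gd16, 33567, 32265 and 34370.2 at gd18, and 29489, 28997 and 35982 at pnd2. It rose at pnd2 against gd11 by 0.77 ± 0.17 (adjusted p = 0.000877), or 0.49 without gd11 replicates 16 and 17, and in no adjacent step. Of the type V chains, which limit fibril diameter, Col5a1 was 6325 ± 280.4 at pnd2 and 2771 ± 882 at gd11, and Col5a2 was 9385 ± 1159 at pnd2 and 3368 ± 1203 at gd11 (SD, n = 3 and 5). Col5a1 rose by 1.24 ± 0.19 (adjusted p = 2.53e-05) and Col5a2 by 1.55 ± 0.24 (adjusted p = 3.09e-05). Col5a3 intensity was 58.1, 62.9, 84.4, 70.8 and 155 at gd11, 108, 83.9 and 109 at gd12, 91.3, 50 and 92.1 at gd14, 169.5, 197 and 205 at gd16, 294, 257 and 354 at gd18, and 265, 233 and 336 at pnd2. It rose at gd16 against gd14 by 1.11 ± 0.27 (adjusted p = 0.0131), a call lost without gd14 replicate 11 or gd16 replicate 9 (adjusted p 0.0618 to 0.066). All arrays from gd16 on were above all earlier arrays. The peritubular and interstitial marker sums given above were lowest on the same gd11 arrays, and their part was not tested.

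**Figure D3:**
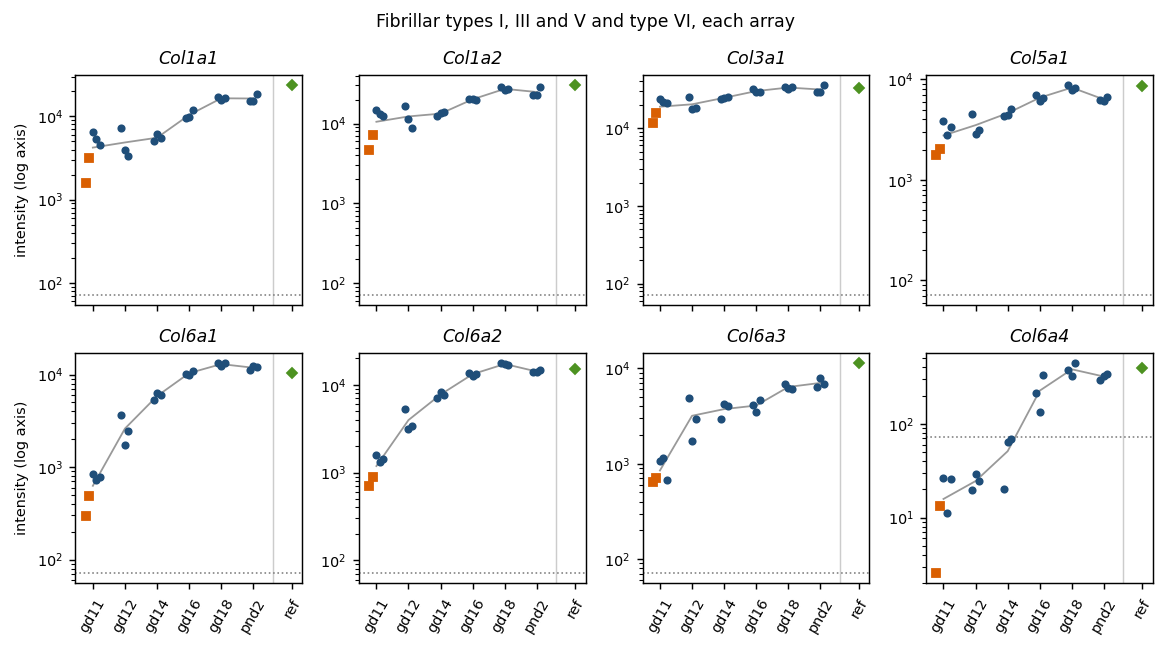
Intensity on a log axis of Col1a1, Col1a2, Col3a1 and Col5a1 in the upper row and of the 4 tested type VI chains in the lower row, for each testis array by stage. Orange squares are gd11 replicates 16 and 17, blue points the other arrays, the diamond the whole newborn reference, the grey line the stage means and the dotted line 71.6. Col6a1 lies at 294 to 846 at gd11, at 1725 to 3670 at gd12 and at 11292 to 12278 at pnd2.

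Of the chains known best from cartilage, Col2a1, Col9a1, Col11a1 and Col11a2 fell at pnd2 against gd11. Col2a1 is the chain of type II, the main fibril of cartilage. Col2a1 intensity was 3379, 5350.5, 483, 594 and 967 at gd11, 559, 441 and 989.8 at gd12, 157, 99.9 and 101 at gd14, 182, 109 and 194 at gd16, 143, 171 and 329 at gd18, and 39.4, 40.4 and 9.34 at pnd2. The gd11 replicates 16 and 17 stood far above the other 3 gd11 arrays, and the pnd2 arrays lay below every other array. Col2a1 fell at pnd2 against gd11, with a log2 change of -4.83 ± 0.58 (adjusted p = 1.45e-06), and of -3.76 without those 2 arrays. The pnd2 mean was near background and, taken at 71.6, at least 30.1-fold lower than the gd11 mean of 2155 ± 2142 (SD, n = 5). The fall at gd14 against gd12 was -2.22 ± 0.65 (adjusted p = 0.0225), a call lost without gd12 replicate 15 or gd14 replicate 11 or 12 (adjusted p 0.068 to 0.0895). The fall at pnd2 against gd18, at least 2.99-fold and fitted as -2.17 ± 0.65 (adjusted p = 0.0469), was lost in 21 of 27 settings, among them each one without a pnd2, gd18, gd16, gd14 or gd12 array or without gd11 replicate 20 (adjusted p 0.0502 to 0.181). The change at gd12 against gd11 was -1.12 ± 0.58 (adjusted p = 0.181) with all arrays and -0.06 without the 2 high ones, and was called in neither.

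Col9a1, a chain of type IX, which decorates type II fibrils, also fell. Its intensity was 2283, 4095, 786, 673 and 2285 at gd11, 695, 1116 and 1415 at gd12, 489, 178 and 337 at gd14, 143, 175 and 289.7 at gd16, 187, 139.8 and 459 at gd18, and 139, 102 and 87.1 at pnd2. The groups of gd11 and pnd2 did not overlap. The log2 change at pnd2 against gd11 was -3.67 ± 0.49 (adjusted p = 4.85e-06), and -3.07 without gd11 replicates 16 and 17. At gd14 against gd12 it fell by 1.66 (SE 0.55, adjusted p = 0.0395), a call lost without gd12 replicate 14 or 15 or gd14 replicate 11 or 12, and with the mean of its probe sets (adjusted p 0.0794 to 0.165).

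The other type IX chains, Col9a2 and Col9a3, rose at gd12. Col9a3 intensity was 72.0, 82.3, 37.2, 92.3 and 13.3 at gd11, 1917, 1421 and 3182 at gd12, 2484, 2271 and 2547 at gd14, 908, 1366 and 731 at gd16, 334, 228 and 345 at gd18, and 117, 124 and 251 at pnd2. Each gd12 array lay above each gd11 array, and the mean was highest at gd14. The gd11 mean of 59.4 ± 33.1 (SD, n = 5) was near background on each of its probe sets that passed the filter. Taken against 71.6, the gd12 mean of 2173 ± 908 (SD, n = 3) was at least 30.4-fold higher, with a fitted log2 change of 4.79 ± 0.34 (adjusted p = 2.12e-08). It fell by 1.31 at gd16 against gd14 (SE 0.38, adjusted p = 0.0344) and by 1.63 at gd18 against gd16 (SE 0.38, adjusted p = 0.0183). The gd16 call was lost without any gd14 array or without gd16 replicate 7 or 9 (adjusted p 0.0723 to 0.156), and the gd18 call without gd16 replicate 8 or gd18 replicate 4 or 5 (0.0632 to 0.118). The pnd2 level was still above that of gd11, at least 2.29-fold, with a fitted change of 1.23 ± 0.34 (adjusted p = 0.00547), but not past the threshold without pnd2 replicate 3 (0.92, adjusted p = 0.0549). Its other probe set gave 0.14 (adjusted p = 0.701) for that comparison.

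Col9a2 intensity was 6.59, 77.2, 22.8, 53.0 and 60.2 at gd11, 356, 262 and 509.6 at gd12, 214, 205 and 224 at gd14, 178, 173 and 246 at gd16, 325, 162 and 287 at gd18, and 134, 181 and 269 at pnd2. The gd11 mean was near background, and the gd12 mean at least 5.25-fold higher when gd11 is taken at 71.6. The fitted rise was 2.67 ± 0.34 (adjusted p = 2.15e-05), with no overlap, and no later adjacent step was called. Its fitted rise at pnd2 against gd11 was 1.80 ± 0.34 (adjusted p = 0.000225), at least 2.72-fold. Sertoli markers moved at the same step, with 8 of 10 higher at gd12 against gd11, where 11.2% of all genes rose, and sums of 23554 to 40772 at gd12, against 3053 to 9721 at gd11. Their part in the Col9a2 and Col9a3 values was not tested.

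Type XI chains start the type II fibril. Col11a1 intensity was 979, 1378, 1042, 1038 and 1035 at gd11, 719, 392 and 512 at gd12, 459, 734 and 660.2 at gd14, 741, 921 and 1209.5 at gd16, 1066, 757 and 982 at gd18, and 507, 601 and 638 at pnd2. It fell at gd12 against gd11 by 1.02 (SE 0.19, adjusted p = 0.00105) and was lower at pnd2 than at gd11, -0.88 ± 0.19 (adjusted p = 0.000927). No gd12 or pnd2 array reached the lowest gd11 array. Col11a2 intensity was 127, 82.9, 76.0, 74.3 and 58.6 at gd11, 73.7, 37.6 and 31.1 at gd12, 57.9, 50.5 and 70.8 at gd14, 97.1, 128 and 65.0 at gd16, 118, 78.3 and 181 at gd18, and 42.1, 41.6 and 11.8 at pnd2. It fell at pnd2 against gd18 by 1.45 (SE 0.34, adjusted p = 0.0142), a call lost without gd18 replicate 6 or pnd2 replicate 3 (adjusted p 0.0722 to 0.0808). The pnd2 mean was near background, which bounds this fall at 1.75-fold or more. Its fall at pnd2 against gd11, -1.0 ± 0.30 (adjusted p = 0.0103), was lost without pnd2 replicate 3 or without gd11 replicates 16 and 17 (0.0929 and 0.0527). With a gd11 mean of 83.7 and a pnd2 mean near background, this fall is bounded at only 1.17-fold or more. The probe set of Col11a2 was above the filter level on 9 of 20 testis arrays.

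Other cartilage genes were summed on the same arrays. The 8 cartilage markers summed to 1422 and 1162 on gd11 replicates 16 and 17, against 1074 to 1370 on the other gd11 arrays, 862 to 1382 at pnd2 and 9247 in the reference. Matn1 and Matn3, which cartilage secretes, were near background on every testis array. Of 6 tested markers, only Hapln1, a link protein of cartilage matrix, was called at gd12 against gd11 and at gd14 against gd12. It fell by 0.88 and by 0.92, where 10.2% and 7.34% of all genes fell. At pnd2 against gd11, 2 of the 6 rose, 1 fell and 3 were not called. Of all genes, 24.2% rose and 24.4% fell there. The neural sums were 58478 and 36044 on gd11 replicates 16 and 17, 6 of 7 tested neural markers fell at pnd2 against gd11, where 24.4% of all genes fell, and their part in the Col2a1 and Col9a1 values was not tested.

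**Figure D4:**
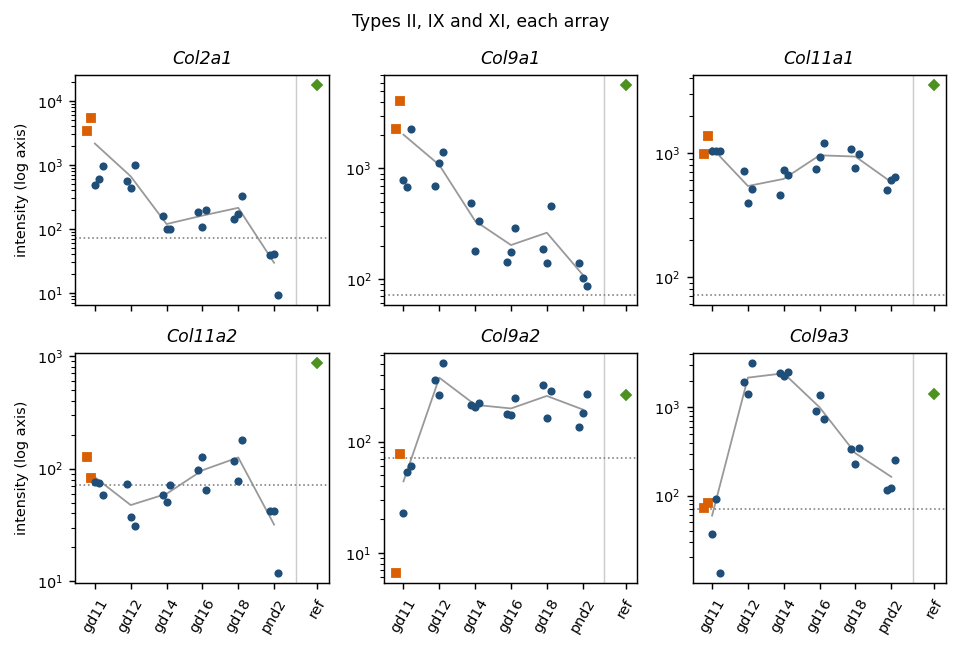
Intensity on a log axis of the tested chains of types II, IX and XI for each testis array by stage, drawn with the same symbols as the plot of types I, III, V and VI. Col2a1 reads 9.34 to 40.4 at pnd2 and 3379 and 5350.5 on the orange gd11 arrays, and Col9a3 has its highest mean at gd14.

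Among the remaining types, Col14a1, Col15a1, Col16a1, Col18a1 and Col27a1 rose at gd12. Col15a1 and Col18a1 are chains of the basement membrane zone, and Col18a1 holds the endostatin fragment. Col15a1 was 232 ± 69.4 at gd11, 469.8 ± 124 at gd12 and 939 ± 208 at pnd2. It rose by 0.97 ± 0.23 (adjusted p = 0.0049) at gd12 against gd11, a call lost in a fit of these stages alone (adjusted p = 0.0582), and by 1.94 ± 0.23 (adjusted p = 9.41e-07) at pnd2 against gd11. Col18a1 was highest at gd12, with 6686 ± 1918 at gd12 and 3508 ± 873 at gd11. It rose by 0.92 ± 0.19 (adjusted p = 0.00176) at gd12, and at pnd2 its difference from gd11 was 0.23 ± 0.19 (adjusted p = 0.338), which was not called.

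Col14a1 and Col16a1 attach to the surface of fibrils. Col16a1 was 901 ± 201 at gd12 and 316 ± 90.1 at gd11, a rise of 1.47 ± 0.19 (adjusted p = 2.57e-05), and its rise at pnd2 against gd11 was 2.23 ± 0.19 (adjusted p = 1.43e-08). Col14a1 was 2072 ± 611 at gd12 and 838 ± 255 at gd11, a rise of 1.29 ± 0.20 (adjusted p = 0.000148). Col27a1, a fibrillar chain best known from cartilage, was highest at gd12 with 1528 ± 229, against 523 ± 157 at gd11, a rise of 1.55 ± 0.20 (adjusted p = 1.95e-05). Each of these 3 genes had all gd12 arrays above all gd11 arrays.

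Of the chains that span the cell membrane, Col17a1 and Col23a1 rose at gd16 and Col13a1 and Col25a1 had their highest mean there. Col17a1, a part of hemidesmosomes in skin, had intensities of 33.4, 18.5, 6.0, 4.64 and 20.4 at gd11, 31.1, 26.7 and 12.8 at gd12, 53.3, 18.7 and 27.1 at gd14, 146, 128 and 260.4 at gd16, 138, 121 and 187 at gd18, and 109, 68.9 and 127 at pnd2. It was near background until gd14 and rose at gd16 against gd14 by a fitted 1.84 ± 0.35 (adjusted p = 0.00273), at least 2.49-fold when gd14 is taken at 71.6. Its probe set was above the filter level on 9 of 20 testis arrays. It thus entered the test through the later stages where it is high, and this rise and that at pnd2 against gd11 are description only. Col23a1 rose at gd16 against gd14 by 0.71 ± 0.19 (adjusted p = 0.0256), with 729 ± 40.3 at gd16 and 439.7 ± 72.9 at gd14. This call was lost without gd14 replicate 11 or 12, without any gd16 array, and with the mean of its probe sets (adjusted p 0.0552 to 0.111). Col13a1 rose at pnd2 against gd11 by 0.95 ± 0.27 (adjusted p = 0.00695), with its highest mean at gd16, 1046 ± 109, against 403 ± 165 at gd11. The change was 0.53 (adjusted p = 0.00702) without gd11 replicates 16 and 17. The call was lost in a fit of gd11 and pnd2 alone (adjusted p = 0.0601).

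Col25a1, known from neurons and muscle, was highest at gd16, with 1050.1 ± 161 at gd16 and 354 ± 45.3 at gd14. It was called in no adjacent step with all arrays, with 1.5 ± 0.52 (adjusted p = 0.0736) at gd16 against gd14. Its gd11 arrays spread from 35.1 to 571. Without gd11 replicates 16 and 17, it was called lower at gd12 against gd11 (-1.09, adjusted p = 0.015), higher at gd14 and at gd16 against the stage before (1.19 and 1.5), and lower at pnd2 against gd18 (-1.02, adjusted p = 0.0314).

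Col26a1, a secreted chain described from mouse testis and ovary, was the one gene outside the cartilage types that fell at pnd2 against gd11. Its intensity was 1374, 1804, 2569.9, 2271 and 1358 at gd11, 2123, 1294 and 1313 at gd12, 792, 1044 and 958 at gd14, 867, 1192 and 883 at gd16, 802, 864 and 709.6 at gd18, and 721, 722 and 902 at pnd2. No pnd2 array reached any gd11 array, and the log2 change was -1.20 ± 0.20 (adjusted p = 6.91e-05). It fell at gd14 against gd12 by 0.72 (SE 0.23, adjusted p = 0.0327), a call lost without gd12 replicate 13 or gd14 replicate 10 or 12 and with the mean of its probe sets (adjusted p 0.0679 to 0.176). Col22a1, which lies at tissue junctions such as that of muscle and tendon, had intensities of 84.8, 111, 127, 106 and 119 at gd11, 28.8, 79.3 and 74.5 at gd12, 140.2, 123 and 179.8 at gd14, 225, 291 and 237 at gd16, 69.2, 147 and 181 at gd18, and 54.6, 44.7 and 114 at pnd2. It rose at gd14 against gd12 by 1.08 ± 0.32 (adjusted p = 0.0241), a call lost without gd12 replicate 13 or gd14 replicate 10 or 12 (adjusted p 0.0587 to 0.132). Its stage means were highest at gd16. At gd12 and at pnd2 they were near background on this probe set, while another of its probe sets had 95.5 ± 28.9 at gd12 and 94.1 ± 14.5 at pnd2, above that level.

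Col8a2, a network chain of the vessel wall and the cornea, rose at pnd2 against gd11 by 1.27 ± 0.26 (adjusted p = 0.000434), with 549 ± 69.2 at pnd2 and 222 ± 76.5 at gd11. Its partner Col8a1 ranged from 60.4 to 524 over the gd11 arrays and was called in no comparison, while another probe set of Col8a1 was called lower at gd12 against gd11 (-1.91, adjusted p = 0.0331). Col7a1, which anchors skin epithelium, Col12a1, Col20a1 and Col24a1 were called in none of the 6 comparisons either. For the 3 genes that did not pass the filter, only ranges are given. Col10a1, the chain of hypertrophic cartilage, read 2.24 to 22.6 on testis arrays and 1498 in the reference, 20.9 times the near-background level. Col6a5 read 1.39 to 33.2 on testis arrays, and Col19a1 1.67 to 95.6.

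Genes that modify, cross-link and bind collagen were counted from lists chosen with results of these data known. At pnd2 against gd11, 10 of 19 genes for hydroxylation, folding and export of the chains rose and none fell, where 24.2% of all genes rose and 24.4% fell. Their median log2 change was 0.68, against -0.03 over all genes. The largest rise among them was that of Sparc, a collagen-binding matrix protein, 1.52 ± 0.28 (adjusted p = 0.000183). Of 10 genes for propeptide cleavage and cross-linking, 4 rose and 1 fell, near the 48.6% of all genes called in this comparison, and their median change was 0.35. Lox, the enzyme that starts cross-links, was 2891 ± 219 at pnd2 and 124 ± 49.6 at gd11 (SD, n = 3 and 5), a rise of 4.39 ± 0.25 (adjusted p = 4.45e-11). Lox also rose at each step to gd18, by 1.39, 0.98, 1.13 and 1.23 at gd12, gd14, gd16 and gd18. Adamts3, which cleaves the type II propeptide, fell, -1.39 ± 0.27 (adjusted p = 0.000243).

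The other lists were counted at pnd2 against gd11 too, where 24.2% of all genes rose and 24.4% fell. Of 7 receptors, Itgb1 rose, 0.72 ± 0.15 (adjusted p = 0.00054), and Itga2 fell, -1.28 ± 0.30 (adjusted p = 0.0018). Of 8 genes for collagen breakdown and its inhibitors, 5 rose and 1 fell. The largest rise was that of Timp3, an inhibitor of metalloproteinases, 1.70 ± 0.17 (adjusted p = 1.21e-07), and Fap, a serine protease, fell, -0.99 ± 0.34 (adjusted p = 0.0223). Of 5 Sox factors that act on cartilage collagen genes, Sox8 rose, 3.87 ± 0.30 (adjusted p = 4.2e-09), and Sox5, Sox6 and Sox10 fell. Sox10, which also marks neural crest cells, had the largest fall, -2.06 ± 0.55 (adjusted p = 0.00412). The median change was 0.01 over the receptors, 0.78 over the breakdown genes and -0.68 over the Sox factors. Sox9, which drives Col2a1 in cartilage and the Sertoli fate in the testis, was not called, 0.35 ± 0.25 (adjusted p = 0.262).

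Set against the whole newborn, the pnd2 testis read at least 2-fold higher for Col4a3, Col4a4, Col4a5 and Col4a6 and at least 2-fold lower for the cartilage chains of types II, IX and XI other than Col9a2. With 1 reference array there is no test. Of 39 collagen genes, 6 were at least 2-fold higher at pnd2 on the log2 scale, 11 were at least 2-fold lower and 22 lay between, where 17.5% of all genes were past 2-fold higher and 17.3% past 2-fold lower, 34.9% in all. The median difference was -0.30 over the collagen genes and 0.11 over all genes. Col4a4 read 2723, 2852 and 3237 at pnd2, against 324 in the reference, a log2 difference of 3.09. Col4a3 differed by 2.62, with a reference value of 53.1, which is near background. Col4a5 read 2920.3, 3077 and 3114 at pnd2, against 976 in the reference, a difference of 1.61. Col23a1, Col4a6 and Col25a1 were the other 3 with higher values, with differences of 1.61, 1.5 and 1.48.

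Col2a1 was at the other end, with 39.4, 40.4 and 9.34 at pnd2, against 17648 in the reference. Its 3 pnd2 values were all near background, and taken at 71.6 their mean was at least 246-fold lower than the reference. Col9a1 followed with a log2 difference of -5.46, at 87.1 to 139 in the pnd2 testis, against 5694 in the reference. Col11a2 came next with a difference of -4.09, at 11.8 to 42.1, near background, against 866, and was at least 12.1-fold lower. Col9a3, Col22a1, Col11a1, Col17a1, Col5a3, Col8a1, Col14a1 and Col12a1 were also at least 2-fold lower, with differences of -3.02 to -1.36. The reference lay above every testis array for 13 genes and below every testis array for 4. Such counts were not made over all genes, so these cannot be set against a share. At pnd2 the skin markers summed to 1005 to 1111, the muscle markers to 300 to 389 and the cartilage markers to 862 to 1382, against 91186, 96197 and 9247 in the reference. Which tissue of the newborn carried a chain was not tested.

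**Figure D5:**
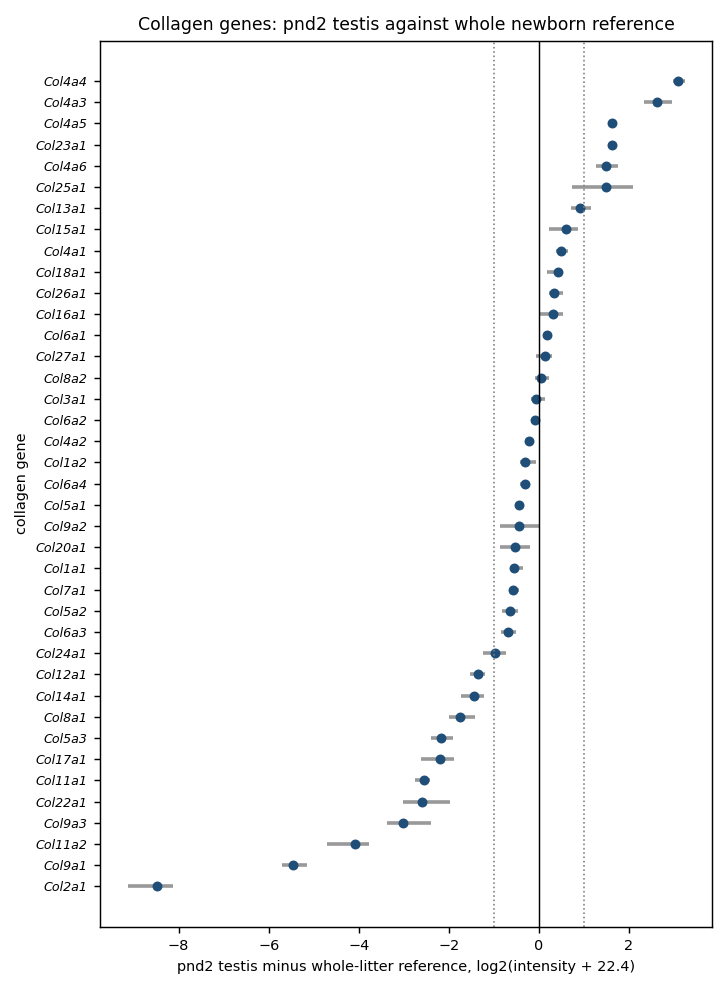
Difference between the pnd2 testis and the whole newborn reference for the 39 tested collagen genes, in log2(intensity + 22.4), sorted by size. Points are the mean of 3 pnd2 arrays, bars run from the lowest to the highest pnd2 array against the same 1 reference array, and dotted lines mark 2-fold. The differences run from -8.47 for Col2a1 to 3.09 for Col4a4.

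Several collagen genes had more than 1 probe set, 27 of the 42. Over the 6 comparisons, each further probe set that passed the filter was set beside the one that represents its gene. Both were called in the same direction in 40 cases, neither in 121, and 1 of them in 17 cases with the same direction. These 17 were of Col4a4 at each step to gd18, Col4a6 and Col9a3 at pnd2 against gd11, Col9a3 at pnd2 against gd18, Col4a1, Col4a6, Col9a1, Col18a1 and Col26a1 at gd14 against gd12, Col8a1 and Col22a1 at gd12 against gd11, Col27a1 at pnd2 against gd11, and a pair of Col23a1 at gd16 against gd14. In 2 cases 1 probe set was called and the other differed in sign. For Col1a2 at pnd2 against gd11 the other probe set gave -0.08 (adjusted p = 0.85), and for Col22a1 at gd14 against gd12 it gave -0.22 (adjusted p = 0.684). No case had both called in opposite directions. For Col9a3 the second probe set was called lower at pnd2 against gd18 (-1.41, adjusted p = 0.00972), where the first was not (-0.86, adjusted p = 0.197).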

How the data were processed

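The file deposited by the authors holds 1 intensity per probe set and array, computed in GCOS, the array maker's software, per the submitters' processing notes. The sources used here give neither its version nor a genome build for the probe sets. After trimming 2% of probe sets at each end, mean intensity was 500 on all 21 arrays, so the values were used as deposited. No pair of arrays held identical values, and the labels name no batch. Nothing in the sample labels says more of how replicates were separated than the pools and animals given above, so p-values measure the spread between these samples. Precision is limited by how few arrays each stage has.

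Gene names came from the platform's probe set table, checked by Entrez identifier against a mouse gene table of GRCm38.p6 (34741 of 34945 matched, with 0 symbols changed). Left out were 932 probe sets with several genes and 9160 with none. Values were transformed to log2(intensity + 22.4), with the added value at the 20th percentile over the testis arrays. A probe set entered when 3 or more of 20 testis arrays read above their own 40th percentile, and 71.6 is that percentile over all of them together. The 20 testis arrays entered 1 fit with 6 stage means (limma 3.58.1 in R 4.3.3, lmFit, then eBayes with trend, on 14 residual and 4.94 prior degrees of freedom), tested on simulated data. Stages share 1 spread per gene, so variation at 1 stage makes calls at other stages of that gene harder. Adjacent comparisons share arrays with each other and with pnd2 against gd11, and are not independent. Replicate numbers run on over the series. The reference array entered no test.

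The alternatives were quantile normalization, a larger pseudocount, no filter, the mean of a gene's probe sets, every probe set in the fit, a fit of only the stages compared, leaving out gd11 replicates 16 and 17, and leaving out each array in turn. Given array by array were the 3 largest called rises and falls of each comparison, the tested chains of types I, II, III, IV, VI and IX, and the 3 largest differences from the reference in each direction. The members and lists were chosen with earlier results of these data known.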

Additional observations from a re-analysis of the deposited data

Results flagged for a closer look

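Over the 39 tested collagen genes, the 5 gd11 arrays were examined for a single array far from the others, measured as its gap to the nearest array divided by the whole range, with a limit of 0.71. Chance alone marks about 1 in 20 groups, and 2 of 39 were marked. Col4a3, a basement membrane chain, read 50.6 on gd11 replicate 18, against 3.38, 6.86, 5.69 and 6.42 on the other gd11 arrays, all below 71.6 and thus near background. Col11a1, a chain of cartilage fibrils, read 1378 on gd11 replicate 17, one of the arrays with high neural markers, against 979, 1042, 1038 and 1035 on the others.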

How the results depend on the processing

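Of 67 calls of a collagen gene in a comparison, 44 held in all 27 alternatives, 23 were lost in at least 1, and none changed sign in any. The counts at gd12 against gd11, at pnd2 against gd11 and in the F-test, and the median difference from the reference, stayed within 1.5 times or within the spread of the arrays in every alternative. The later adjacent steps depended on the fit. With only the stages compared in the fit, 18 collagen genes were called at gd16 against gd14, 10 at gd18 against gd16 and 8 at pnd2 against gd18. Without gd11 replicates 16 and 17 the counts were 15 at gd16 against gd14 and 4 at gd18 against gd16. The shares of all genes called in these other fits were not counted. At pnd2 against gd18, 2 were called with no filter and 2 with quantile normalization. Leaving out 1 array at a time gave 4 to 12 calls at gd14 against gd12, 2 to 10 at gd16 against gd14, 0 to 2 at gd18 against gd16 and 0 to 4 at pnd2 against gd18. Leaving out gd11 arrays, or fitting only the stages compared, keeps the estimates of the later steps and changes only their spread and adjusted p. The cause of the other moves was not tested. No alternative moved the median of all genes by more than 0.1 on the log2 scale. No paired analysis was possible because replicate numbers run on over the series and no number occurs at more than 1 stage. Near-background intensities limit Col4a3, Col6a4, Col17a1, Col11a2, the pnd2 values of Col2a1 and the gd11 values of Col4a4, Col9a2 and Col9a3. They also limit Col8a1, Col20a1, Col22a1 and Col24a1 at some stages, on the probe sets that represent them.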
